A study of Ginkgo biloba with 2 samples.

Results

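The miRNA families of plant phase change were followed in leaves of Ginkgo biloba, a gymnosperm tree. The members were all names of the deposited count table of the families miR156, miR157, miR172, miR529 and miR535, whatever their species prefix, letter or hairpin arm. They were 23 of 467 names: 12 of miR156 and miR157, handled here as 1 group, 5 of miR172, 4 of miR529 and 2 of miR535. The prefix names the species in which miRBase holds the sequence (ath Arabidopsis thaliana, cca artichoke, stu potato, ppt the moss Physcomitrella patens, zma maize), so a name says which plant's miRNA the ginkgo reads resembled and not where they came from. One library came from normal green leaves and the other from leaves labelled as yellow leaves of a gold-coloured mutant. Both leaf types were collected from an adult tree growing outdoors, between May and July of 2015 and 2016, and the sampling protocol describes the mutant leaves as yellow-green with stripes. The yellow library may therefore hold green tissue. The extraction text speaks of cambium while the tissue label of both libraries is leaf. The tissue label could not be checked from these counts, since miRNAs are not markers of single leaf cell types.

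In flowering plants, miR156 and the closely related miR157 are abundant in young plants and repress squamosa promoter-binding-like (SPL) transcription factors, which promote the adult phase. miR172 becomes more abundant as miR156 declines with age, and represses AP2-like transcription factors that delay flowering. miR529 and miR535 resemble miR156 in sequence, and miR529, kept in mosses and grasses but lost in Arabidopsis, also targets SPL genes. These roles are background from other species and were not measured here.

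The table's reads summed to 2084893 for green and 2793966 for yellow leaves. Levels are given as CPM, the reads of a name scaled to a common library total, and a single read was worth 0.480 CPM for green and 0.358 CPM for yellow leaves. Each leaf type had 1 library, so the spread between replicates is unknown and no test between leaf types was possible. Each ratio of yellow over green compares these 2 libraries, and the bounds beside it are exact 95% bounds for counting error alone. Reads counted without molecular identifiers can be copies of 1 molecule, so even for counting error the bounds may be too narrow. A name was called lower or higher when it had 20 or more reads over both libraries, differed by 2-fold or more, and had bounds that did not span 1.

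The 23 names were a small part of the leaf pool, with 751 reads or 0.0360% of the table in green leaves and 467 reads or 0.0167% in yellow leaves. These sums count reads listed under several names more than once. Reads were found for 15 of the names in green and for 20 in yellow leaves, and 12 had reads in both. The depth was uneven: 7 names had at least 20 reads, and the other 16 held 16 green and 27 yellow reads in all. Of those 16, 8 rested on a single read. The 3 names found in green leaves alone had 1 to 3 reads, and so had the 8 found in yellow leaves alone. A count of 0 allows up to 3 reads, or 1.44 CPM for green and 1.07 CPM for yellow leaves, so none of these names was shown to be missing from a library.

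**Figure D1:**
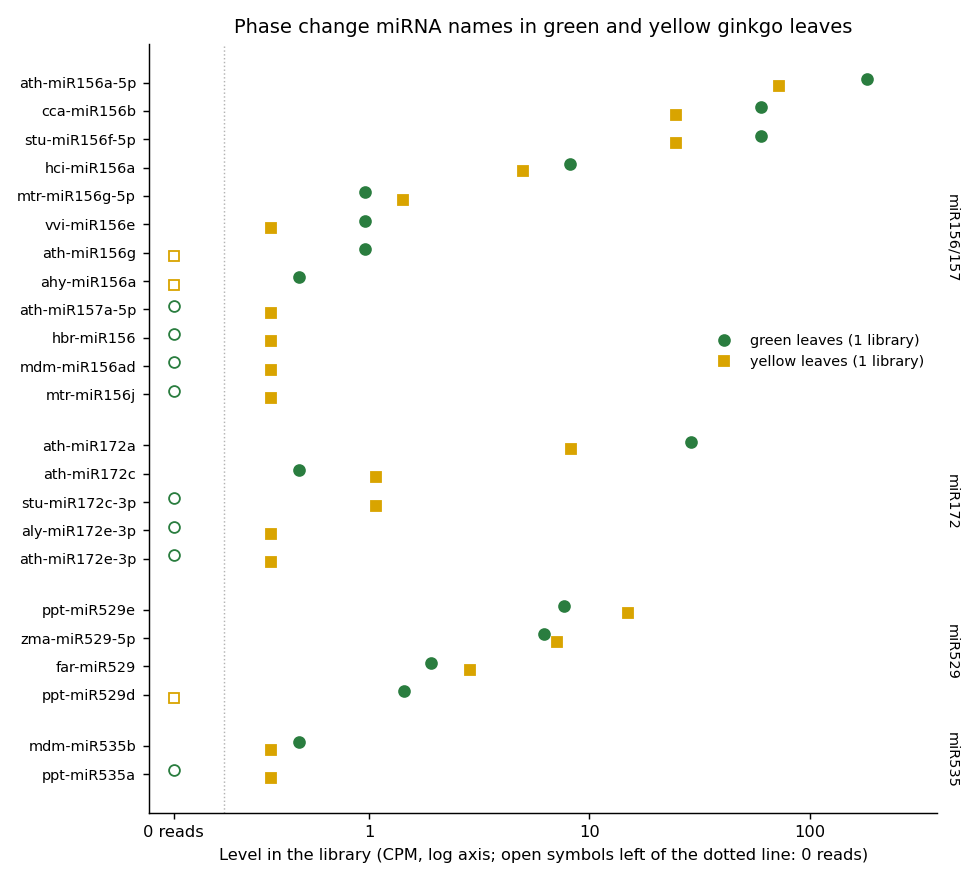
Level of each of the 23 names (CPM, log axis) in green (circles) and yellow leaves (squares), grouped by family, with open symbols for 0 reads and no error bars. The 4 names of miR156 with most reads and ath-miR172a stand further right in green leaves, ppt-miR529e, zma-miR529-5p and far-miR529 further right in yellow leaves, and most other names stand at 0 or near 1 CPM.

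The miR156 group, the repressors of SPL genes, was the most abundant of these families in both libraries and was lower in yellow leaves. ath-miR156a-5p had 379 green reads (182 CPM) and 203 yellow reads (72.7 CPM). cca-miR156b and stu-miR156f-5p had equal counts, 125 green reads (60.0 CPM) and 69 yellow reads (24.7 CPM), and are taken as 1 measurement in the sums below. These 3 names were all called lower, ath-miR156a-5p with a ratio of 0.400 (interval 0.335 to 0.475) and the other two with one of 0.412 (0.302 to 0.557). hci-miR156a, named from a sunflower relative, had 17 green and 14 yellow reads. Its ratio of 0.615 (0.280 to 1.32) stood on the same side of 1, but its interval held both 1 and a 2-fold difference. The other 8 names of the group, among them ath-miR157a-5p with 0 and 1 reads, held 7 green and 9 yellow reads in all. mtr-miR156g-5p was the most-read of those 8, with 2 and 4 reads. vvi-miR156e had 2 and 1 reads, ath-miR156g had 2 and 0, and ahy-miR156a had 1 and 0. hbr-miR156, mdm-miR156ad and mtr-miR156j had 0 and 1 reads each.

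Summed with equal counts taken once, miR156 and miR157 had 528 green reads (253 CPM) and 295 yellow reads (106 CPM). The ratio was 0.417 (0.360 to 0.482), 2.40-fold lower in yellow leaves. Families were ranked by the reads summed over all their names, equal counts included, which gave this group 653 green and 364 yellow reads. Among the 60 miRBase families of the table, with miR156 and miR157 as 1, it ranked 14th in green and 15th in yellow leaves. It thus lay in the upper part of these 60 families in both. The shares of the names within the group overlapped between the libraries. ath-miR156a-5p held 71.8% (67.7 to 75.6) of its green reads and 68.8% (63.2 to 74.1) of its yellow reads, and cca-miR156b held 23.7% (20.1 to 27.5) and 23.4% (18.7 to 28.6). The reads of cca-miR156b per read of ath-miR156a-5p were 1.03 times as high in the yellow library (0.721 to 1.47), with bounds that span 1.

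miR172, the family that represses AP2-like genes, was also lower under its main name. ath-miR172a had 60 green reads (28.8 CPM) and 23 yellow reads (8.23 CPM), and its ratio of 0.286 (0.169 to 0.470) passed the limits for a call. The family rested on this name: it held 98.4% (91.2 to 99.96) of the green miR172 reads and 74.2% (55.4 to 88.1) of the yellow ones. These intervals do not overlap, but the difference rests on few reads of the other names. The other 4 names had 1 green and 8 yellow reads in all. Of these, ath-miR172c had 1 and 3 reads, stu-miR172c-3p 0 and 3, and aly-miR172e-3p and ath-miR172e-3p 0 and 1 each. Over all 5 names the ratio was 0.379 (0.238 to 0.594), from 61 green and 31 yellow reads. miR156 and miR172, which move in opposite directions with age in Arabidopsis, were thus both below 1 in the yellow library.

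miR529, the second family with SPL genes as its known targets, did not follow miR156. ppt-miR529e had 16 green reads (7.67 CPM) and 42 yellow reads (15.0 CPM), a ratio of 1.96 (1.08 to 3.73) just under the 2-fold limit. zma-miR529-5p had 13 and 20 reads, with a ratio of 1.15 (0.543 to 2.51) whose interval included 1. far-miR529, from tall fescue, had 4 and 8 reads, and ppt-miR529d had 3 green and 0 yellow reads. The 4 names together had 36 green reads (17.3 CPM) and 70 yellow reads (25.1 CPM), a ratio of 1.45 (0.957 to 2.23). ppt-miR529e made up 44.4% (27.9 to 61.9) of the family's green reads and 60.0% (47.6 to 71.5) of its yellow reads, and these intervals overlap. miR535 had 3 reads in all: mdm-miR535b, named from apple, had 1 read in each library and ppt-miR535a had 0 and 1, too few for any comparison.

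Of the 7 members with at least 20 reads, 4 were called lower and 0 higher. Across the whole count file, 24.8% of the 306 names with as many reads were called lower and 12.1% higher by the same rule. The 4 lower members rest on at most 3 separate measurements, since 2 of them have equal counts, and such a small number is given as a description. Whether names with unequal counts, such as ath-miR156a-5p and cca-miR156b, share reads is not known, as the counting rule was not given. The median log2 ratio was -1.28 over the 7 members and -0.43 over the 306 names. The member median is the value of cca-miR156b and stu-miR156f-5p, which both enter it though they have equal counts. Scaling decided part of these calls. With TMM or median-of-ratios scaling, which raise every ratio by 1.38 or 1.34 times, ath-miR172a was the 1 member called lower and ppt-miR529e the 1 called higher, and the 3 miR156 names stood between 0.536 and 0.570. In those scalings 16.3% and 17.6% of the 306 names were called lower, and 20.9% and 19.6% higher. Scaled by the total without the most abundant miRNA, 4 members were called lower and ppt-miR529e higher, against 20.9% and 16.3% of all names. A 1.5-fold limit gave 4 lower and 1 higher, against 34.3% and 18.0%. The 5 members of miR156 and miR172 stayed below 1 under each of the 4 scalings tried. Each scaling other than the total raises every ratio, so the 2 members of miR529, above 1 by the total, could not fall below it. By the total, the intervals of hci-miR156a and zma-miR529-5p span 1.

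**Figure D2:**
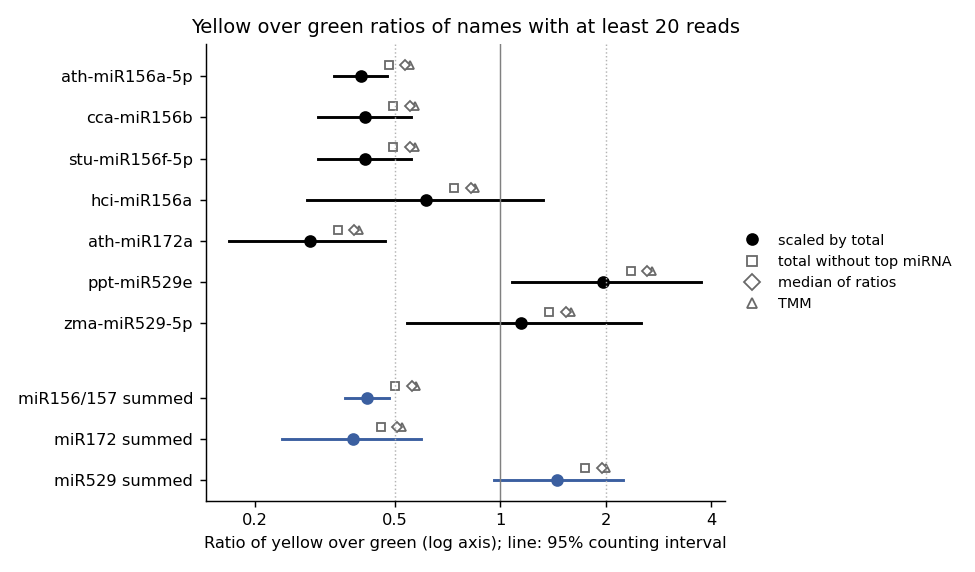
Ratio of yellow over green (log axis) for the 7 names with at least 20 reads (black) and the family sums with equal counts once (blue), scaled by the total, with 95% counting intervals, and under 3 other scalings (open symbols). The miR156 and miR172 points stand left of 1 and the miR529 points right of it under each scaling, while the dotted 2-fold limits are passed under some of them. The 3 other scalings raise every ratio, so they could not move the miR529 points left of 1.

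Because every scaling multiplies all names alike, the families were also compared within each library, where scaling plays no part. In green leaves ath-miR156a-5p had 23.7 times as many reads as ppt-miR529e, and in yellow leaves 4.83 times. The ratio of miR529 to miR156 was thus 4.90 times as high in the yellow library (2.61 to 9.56) by these most-read names, and 3.48 times (2.23 to 5.49) over all names with equal counts once. The most-read names were picked by the same reads, which the intervals do not allow for. zma-miR529-5p, the next name of miR529, had 13 green and 20 yellow reads, a smaller difference. miR529 made up 6.38% (4.51 to 8.73) of the summed miR156, miR157 and miR529 reads in green leaves and 19.2% (15.3 to 23.6) in yellow leaves. These 2 intervals do not overlap. The order of miR172 and miR529 was reversed between the libraries: miR172 had 1.69 times the reads of miR529 in green leaves and 0.443 times in yellow leaves. The ratio of miR529 to miR172 was 3.83 times as high in the yellow library (2.04 to 7.21). Between miR156 and miR172 no such shift was resolved, with a miR172 to miR156 ratio 0.910 times as high in the yellow library (0.557 to 1.46) over all names and 0.716 times (0.410 to 1.22) by the most-read names. These 3 family pairs were compared with 2 choices of names each, and the intervals are not adjusted for their number. How often other families of the count file shifted as much against each other was not looked at. Scaled by the total, 24.8% of the 306 names with at least 20 reads were called lower and 12.1% higher. These are calls on single names and do not say how common shifts between families were.

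The predicted targets were taken from the authors' deposited table, which lists for each gene its best protein match and the miRNAs predicted to bind it. Levels of the target genes were not analysed here. The 23 names were listed for 152 of the table's 2713 genes. 5 of these genes matched SPL proteins, 4 matched the floral homeotic protein APETALA 2, 99 matched other proteins and 44 had no match. Every one of the 12 miR156 and miR157 names was listed for all 5 SPL genes, those with a single read included. Each miR529 name was listed for 4 or 5 of them, no miR172 or miR535 name was listed for any, and the APETALA 2 genes were listed for miR172 names alone among the members.

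The 5 SPL genes were Gb_23724 and Gb_32703 (match SPL protein 3 of rice and of Arabidopsis), Gb_27198 and Gb_02576 (match SPL protein 12 of rice) and Gb_26599 (match SPL protein 7 of rice). Gb_23724 and Gb_27198 were listed for all 16 names of miR156, miR157 and miR529. The other three were each listed for 15, and each lacked a different miR529 name: Gb_02576 lacked ppt-miR529e, Gb_26599 lacked far-miR529 and Gb_32703 lacked zma-miR529-5p. So the most-read miR529 name was listed for 4 of the 5 genes. Of the APETALA 2 genes, Gb_30123, Gb_33988 and Gb_36842 were listed for all 5 miR172 names, while Gb_00766 was listed for stu-miR172c-3p alone, a name with 3 reads in yellow and 0 in green leaves.

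**Figure D3:**
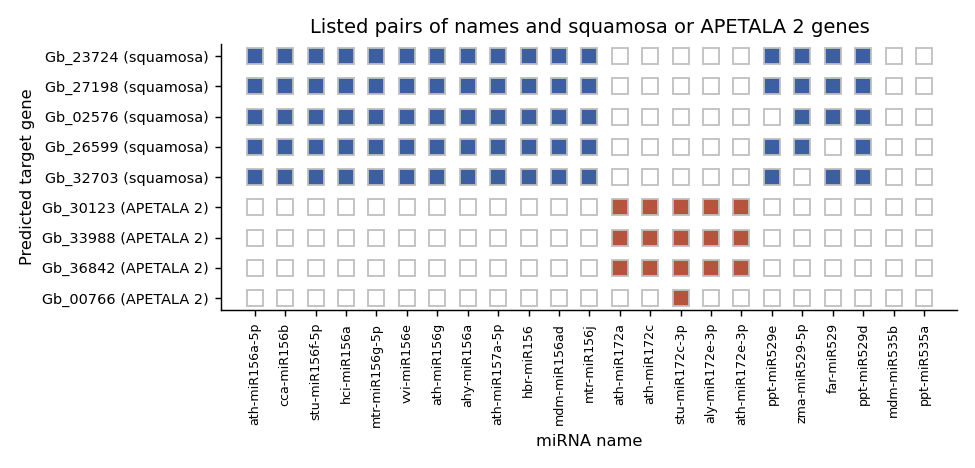
Listed pairs (filled squares) between the 23 names (x axis) and the 9 predicted target genes matching SPL proteins (blue) or APETALA 2 (red) in the authors' deposited table. The 12 miR156 and miR157 names fill all 5 SPL rows, each miR529 name fills 4 or 5 of them, the 5 miR172 names fill 3 of the APETALA 2 rows while the row of Gb_00766 holds stu-miR172c-3p alone, and the miR535 columns are empty.

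The table also listed numbered names, miRNAs with only a number from the authors, for the same SPL genes. novel_221 was listed for all 5, and novel_116 and novel_161 for 4 each, all but Gb_02576. novel_116 went the other way from miR156. It had 17 green reads (8.15 CPM) and 133 yellow reads (47.6 CPM), a ratio of 5.84 (3.51 to 10.3), while novel_161 had 8 reads in each library and novel_221 had 5 and 3. In green leaves ath-miR156a-5p had 22.3 times as many reads as novel_116, and in yellow leaves 1.53 times. The comparison with novel_116 was made after its values were seen.

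Summed over all names listed for an SPL gene of the members, with equal counts once, there were 594 green reads (285 CPM) and 509 yellow reads (182 CPM). The ratio was 0.639 (0.567 to 0.721), against 0.483 (0.422 to 0.552) for the miR156, miR157 and miR529 names alone. novel_116 made up 2.86% of this sum in green and 26.1% in yellow leaves. For Gb_02576, the SPL gene for which novel_116 was not listed, the sum was 265 CPM for green and 117 CPM for yellow leaves, a ratio of 0.440 (0.382 to 0.505). For the other 4 genes it lay between 0.628 and 0.639. With TMM scaling the ratio was 0.608 for Gb_02576 and 0.868 to 0.884 for the others. A sum of reads is not a measure of how strongly a gene is repressed. Apart from equal counts, names of the same and of different families were added as if their reads were distinct.

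**Figure D4:**
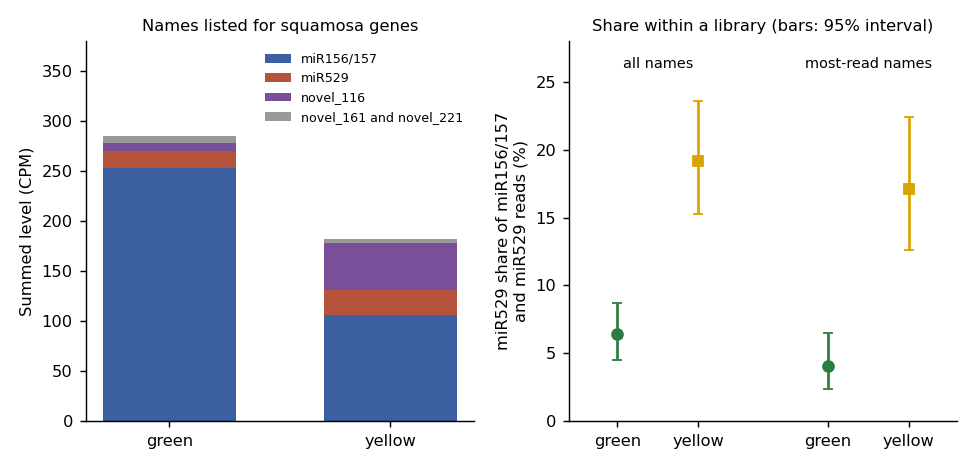
Left, summed level (CPM, equal counts once) of the names listed for the 5 SPL genes in each library, stacked by source. Right, the share of miR529 among the summed miR156, miR157 and miR529 reads (%, with 95% exact intervals), over all names and over the most-read name of each family: 6.38% in green and 19.2% in yellow leaves over all names.

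For the APETALA 2 genes, the sum of the names listed for Gb_30123 and Gb_33988 was that of miR172, 29.3 CPM for green and 11.1 CPM for yellow leaves. Gb_36842 was listed for novel_244 besides, which had 8 and 9 reads, and its sum had a ratio of 0.433 (0.285 to 0.648). The other genes of the pathway were looked up over the whole table by their full protein names. Of 7 genes with a squamosa promoter-binding-like protein as their match, 5 were listed for members, and the other two were Gb_00228 (match SPL protein 1, listed for novel_57) and Gb_15605 (match SPL protein 8, listed for ath-miR5658). All 4 APETALA 2 matches were listed for miR172. The 4 matches named AP2-like ethylene-responsive factors were listed for other miRNAs and for no member. The shorter keywords SBP and AP2 took in 3 further genes, 0 of them listed for a member: Gb_32916 (match a selenium-binding protein), Gb_15182 (match a subunit of the AP-2 adaptor complex of vesicle transport) and Gb_38819 (match RAV1, a transcription factor with an AP2/ERF and a B3 domain), which was listed for novel_244. The single LEAFY-like match, a regulator of cone and flower identity, and the 2 MADS-box matches were also listed for other names, and 0 genes matched Short vegetative phase, SOC1 or Flowering locus proteins, which are regulators of flowering time.

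Of the remaining 143 predicted targets, 99 were listed for 1 member name, and 112 were listed only for names with under 20 reads. The miR156 and miR157 names had 77 target genes in all and the miR529 names 18, and 7 were shared, which is 9.09% of the former and 38.9% of the latter. These 7 were the 5 SPL genes and 2 genes with no protein match, Gb_38014, listed for all 16 names and the 3 numbered names, and Gb_26524, listed for 14. No other pair of families shared a target gene.

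Among the other matches of miR156 and miR157, the most widely listed was Gb_28140 (match an AMSH-like ubiquitin thioesterase, an enzyme that removes ubiquitin), with 4 names that had few reads. Gb_00573 matched the homeobox protein KNOX3, of a family that keeps meristem cells undifferentiated, and was listed for ath-miR157a-5p, mtr-miR156g-5p and hbr-miR156, which had 0 to 4 reads per library. Gb_01961 (match the secretory GTPase SAR1A), Gb_16151 (match a kinesin-related protein) and Gb_18745 (match a chloroplast pentatricopeptide repeat protein, of a family that processes organelle RNA) were each listed for 3 names, ath-miR156a-5p among them.

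For miR172, Gb_11608 (match a transporter of the NRT1/PTR family) and Gb_23334 (match WRKY42, a transcription factor) were listed for all 5 names, as many as 3 of the APETALA 2 genes. Gb_02210 (match a pectinesterase of the cell wall) and Gb_39742 (match a LysM receptor-like kinase) were listed for 4, and Gb_14042 (match an alpha-mannosidase) for 3.

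For miR529, Gb_07210 (match a release factor glutamine methyltransferase) was listed for 3 names and Gb_13091 (match histidine kinase AHK4, a cytokinin receptor) for 2, neither of them ppt-miR529e. Gb_01254 (match actin) and Gb_31068 (match a feruloyl transferase of suberin formation) were listed for far-miR529 alone. Gb_16810 (match a YTH domain protein, of a family that binds methylated RNA) was listed for ppt-miR529e alone. The 6 genes of miR535 were each listed for 1 name. The 4 with a match included Gb_01106 (match a probable sugar phosphate/phosphate translocator) and Gb_01467 (match an uncharacterized protein). Gb_19716 (match the receptor-like kinase PXC3) and Gb_31575 (match the kinase PBS1) were the others.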

How the data were processed

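Small RNA was sequenced from 1 library of green and 1 of yellow ginkgo leaves. Per the file headers, the deposited table holds read counts per miRNA name, and the values were whole numbers. The authors' deposited target table (unit: none, names and protein matches) gave the predicted pairs. The submitters' processing notes name Bowtie. Its version, the genome build, miRBase release, counting rule and prediction tool were not given in the sources used here, and miRNA sequences were not analysed here.

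Counts were scaled to the column total as CPM. The interval of a ratio is the exact (Clopper-Pearson) 95% interval of the yellow share of the reads, converted to a ratio (scipy 1.17.1), and ratios between families carry exact conditional intervals of the odds ratio. Alternative scalings were edgeR 4.0.16 TMM, DESeq2 1.42.0 median of ratios, and the total without the most abundant miRNA. Names of 1 family with equal counts and at least 20 reads were taken once where stated. By rule, all members were named, all their SPL and APETALA 2 targets, and up to 5 other matches per family listed for most names, ties by gene ID. Numbered and other names listed for the same or related genes, and targets with no match, were named after their values were seen. The members, lists and rules were chosen with earlier results of these data known.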

Additional observations from a re-analysis of the deposited data

How the results depend on the processing

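No paired analysis was possible because there was 1 library per leaf type, and no replicate could be left out. The number of members called lower was 4 when scaled by the total, and stayed so with the most abundant miRNA taken out of it and with a 1.5-fold limit. It was 1 with TMM and with median of ratios, and 3 with equal counts once. The number called higher was 0 by the total and 1 under each other scaling and with the 1.5-fold limit, where it was ppt-miR529e each time. The summed ratio of miR156 and miR157 was 0.416 over all names by the total, 0.575 with TMM, 0.557 with median of ratios and 0.4999 with the most abundant miRNA left out. It was called lower in the first and last of these. With equal counts once it was 0.417, 0.576, 0.559 and 0.501 in the same order. That sum was called lower by the total alone, and its other values lay above its counting interval of 0.360 to 0.482. The summed ratios of miR172, miR529 and miR535 stayed inside their counting intervals under each alternative. These intervals were wider than that of miR156 and miR157. That of miR535 was 0.0777 to 88.0, from 1 green and 2 yellow reads, too wide for any scaling used to leave it. Calls on the sums of miR172 and miR529 changed. The sum of miR172 was called lower by the total (0.379) and without the most abundant miRNA (0.456) and not with TMM (0.524) or median of ratios (0.508), and that of miR529 was called higher with TMM alone (2.01). At 31 to 58 reads (hci-miR156a, zma-miR529-5p and ppt-miR529e) the upper bound of the counting interval is more than 3 times the lower one, so the size of these ratios is poorly known. The count of 9 SPL and APETALA 2 targets became 8 with names of at least 20 reads.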

Other observations

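The other protein matches of the members were looked at in 4 groups chosen after the table was read, so none is tested. Of the 46 other matches of miR172, 12 were transposon polyproteins of the Tf2 and Ty3 kinds, the products of retrotransposons, or 26.1%, while such matches were 3.99% of all matched genes of the table. 11 of the 12 were listed for stu-miR172c-3p, a name with 3 reads in yellow and 0 in green leaves, which had 51 target genes, 29 of them listed for no other member. ath-miR172a, with most of the family's reads, had 14 target genes and 0 of this kind. Of the 43 other matches of miR156 and miR157, 6 were pentatricopeptide repeat proteins, or 14.0%, against 5.22% of all matched genes. ath-miR156a-5p was listed for 2 of them. hbr-miR156, with 1 read in yellow leaves, had the most target genes of its family, 31, of which 16 were listed for no other member, while ath-miR156a-5p had 15. Homeobox proteins were 2 of those 43 matches, Gb_00573 and Gb_30997, or 4.65% against 0.197% of all matched genes, and both were listed only for names with under 20 reads. Kinesins were 2 of the 46 matches of miR172, or 4.35% against 0.739% of all matched genes, and 1 of the 43 of miR156 and miR157.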
